A study of Mus musculus with 4 samples.

Results

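The genes described here encode the subunits of the mitochondrial respiratory chain and of ATP synthase. They were taken as all non-control probes whose gene name on the array began with Nduf, Uqcr, Cyc1, Cox4, Cox5, Cox6, Cox7, Cox8 or Atp5, or was Sdh followed by a letter from a to d. This gave 83 gene names on 114 probes, of 27670 gene names on the array. Of the 83 names, 7 belong to core subunits and 28 to accessory subunits of complex I, 4 to complex II, 8 to complex III, 16 to complex IV and 15 to ATP synthase. Ndufa4, first placed in complex I and now in complex IV, was kept apart. So were 4 names that are no subunits: Ndufaf1, an assembly factor of complex I; Cox7a2l, which takes part in assembling supercomplexes; Atp5s, now called Dmac2l; and Cox4nb, now called Emc8, a part of a membrane protein complex of the endoplasmic reticulum.

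The tissue came from e10.5 mouse hearts: the atrioventricular canal (AVC), which lies between atria and ventricles. Each of 4 two-colour arrays compared 1 pool of wild-type AVC, labelled with Cy3 (green), with 1 pool of AVC from Tbx3 hypomorphic mutants, labelled with Cy5 (red). Tissue from 5 hearts was pooled for each of the 8 samples, and both genotypes were on a background of Sv129 and C57Bl6 in equal parts. The labels do not describe the structure of the mutant allele. Tbx3 is a T-box repressor needed for the identity of the canal and of the conduction system. Its log2 ratio of mutant over control was -1.35 ± 0.10 (SD, n = 4), with an adjusted p of 0.0454 in limma, and it was lower on all 4 arrays.

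The respiratory chain passes electrons from NADH (complex I) and succinate (complex II) through complex III to oxygen at complex IV, and complexes I, III and IV pump protons across the inner mitochondrial membrane. ATP synthase uses the returning protons to make ATP. The heart is among the tissues richest in these complexes, and in the embryonic heart mitochondria mature while the muscle still draws much of its energy from glycolysis. The genes named here are those in nuclear DNA.

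Of the 83 genes, 81 were tested, and each of these was well above background in both channels on all 4 arrays and saturated on none. The other two, Cox4i2 and Cox8c, were tissue-restricted isoforms of complex IV whose probes were not well above background. All values below are log2 ratios of mutant over control after loess normalisation within each array, as mean ± SD over the 4 arrays, with 1 probe per gene, the brightest. For the complexes and for many of the genes a second value is given, the ratio at equal brightness: the ratio minus the running median of all kept probes of like brightness on the same array. Brightness, A, is the mean log2 intensity of both channels. It depends on the probe as well as on the transcript, so it does not rank the genes by level. The number of arrays, 4, limits the precision, and because the labels give the same dye orientation on all of them, dye and genotype cannot be told apart.

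No gene of the respiratory chain or of ATP synthase passed an adjusted p of 0.05. Across all 19099 genes tested only Tbx3 did, 0.00524% of them. At an adjusted p of 0.1, 2 of the 81 genes were called, against 0.136% of all genes. They were Atp5a1 (alpha) and Atp5b (beta), which form the catalytic head of ATP synthase, each with an adjusted p of 0.0965 in limma. At an unadjusted p of 0.05, 12 of the 81 were higher in the mutant, against 7.09% of all genes, and 2 were lower, against 7.45%. On all 4 arrays 21 of the 81 were higher, against 12.3% of all genes, and 3 were lower, against 12.6%.

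As a whole the 81 genes lay close to 0. Their median ratio was 0.05, with 50 of 81 above 0, beside a median of 0.00121 over all genes, of which 50.3% were above 0. On arrays 1 to 4 the median over the 81 genes was 0.07, 0.09, 0.01 and 0.01. The 95% intervals of all 81 genes lay between -0.64 and 0.98, so none reached a change of 1 on the log2 scale in either direction. At equal brightness the median was -0.02, and 37 of 81 were above 0.

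**Figure D1:**
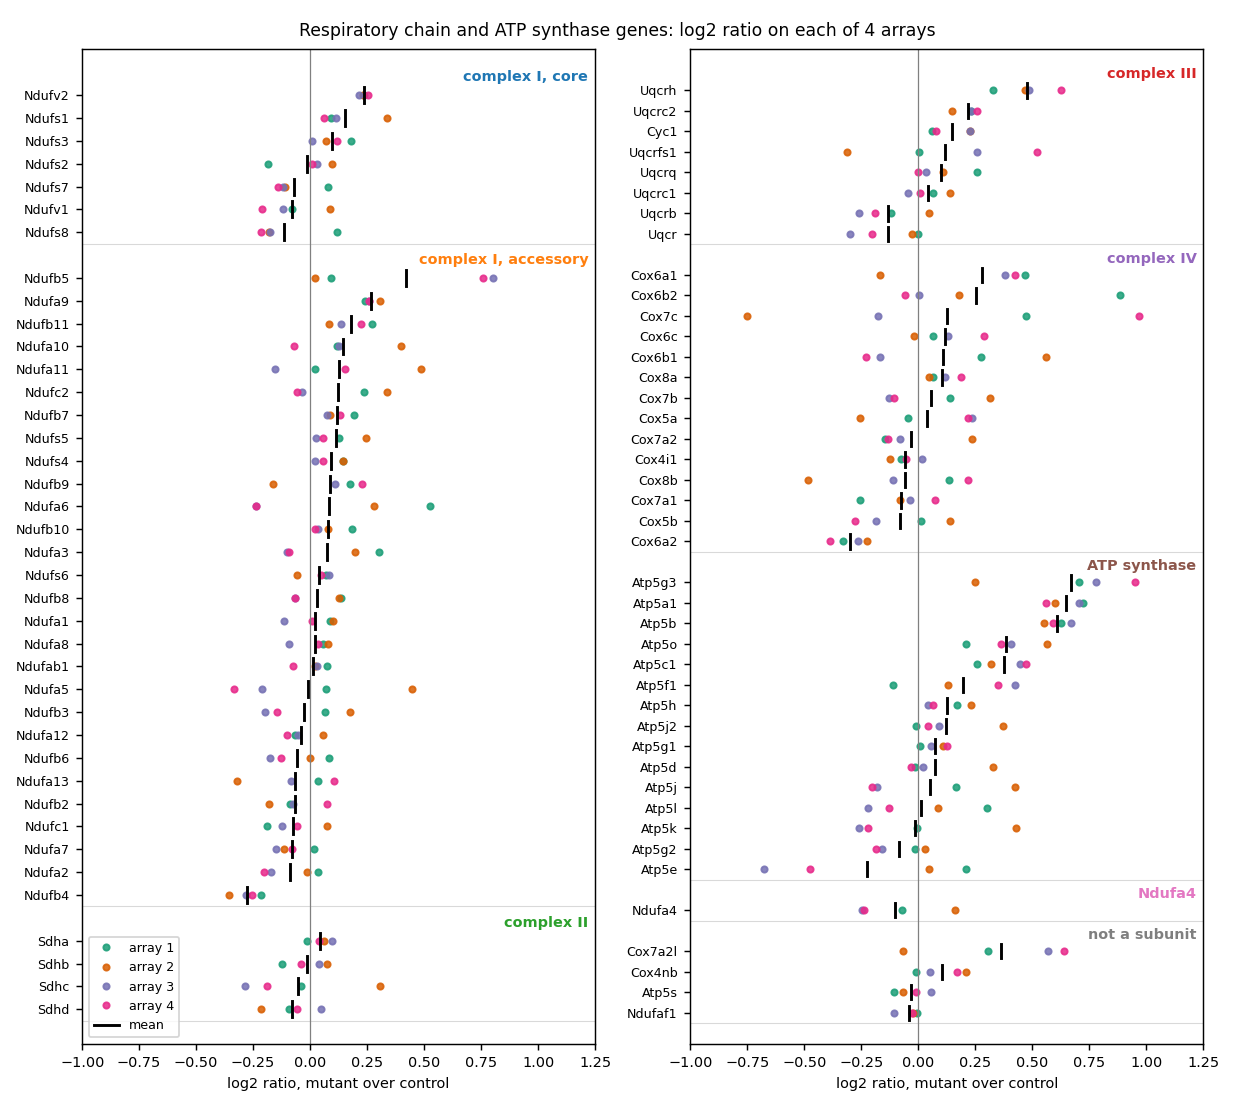
Log2 ratio of mutant over control (horizontal axis) for each of the 81 genes, grouped by complex. Each coloured point is 1 of the 4 arrays and each black line is the mean; most means lie near 0, and the highest, Atp5g3, Atp5a1 and Atp5b, lie between 0.61 and 0.67.

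Ratios climbed with brightness at the bright end, though not for each gene: Ndufb5, with an A of 13.3, was at 0.42 and Cox7a2l, with an A of 14.0, at 0.36, while Cox5a, with an A of 16.97, was at 0.04. Of the 100 brightest genes, 8 were of this set and 31 had names that begin with Rpl or Rps, the ribosomal proteins. Above an A of 17, 4 genes of the set had a median ratio of 0.63, and the 72 other genes of that brightness had a median of 0.57, with 98.6% of them above 0. From 16 to 17, the median was 0.11 for 15 genes of the set and 0.29 for 204 others. Below that the medians were nearer 0: from 15 to 16, -0.02 for 28 genes of the set and 0.02 for 426 others, and from 13 to 15, 0.04 for 25 and -0.04 for 2226. Below 13, 9 genes of the set had a median of 0.08 and 16090 others one of 0.00286. The other genes thus climbed with brightness as well. From 16 to 17 the median of the set lay below the lower quartile of the others, 0.135. Brightness within that bin was not matched between the set and the others. Whether the climb belongs to the dyes or to the genotype cannot be told apart.

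**Figure D2:**
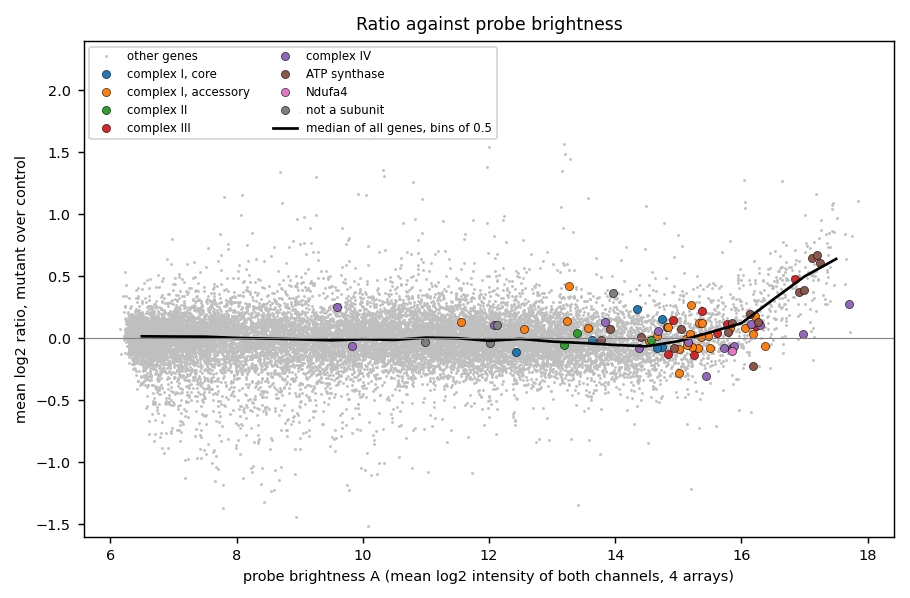
Mean log2 ratio of mutant over control (vertical axis) against probe brightness A, in log2 intensity (horizontal axis), for all genes tested (grey) and for the genes of each complex (colours). The black line is the median of all genes in bins of A; it climbs at the bright end, where the 4 genes of the set above an A of 17 have a median of 0.63.

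At equal brightness no gene of the set passed an adjusted p of 0.1, and the smallest was 0.195 in limma. On that scale 10 genes were higher on all 4 arrays, against 10.8% of all genes, and 12 were lower, against 12.7%. An unadjusted p of 0.05 was passed by 7 that were higher, against 6.37% of all genes, and by 8 that were lower, against 7.45%. A positive ratio on all 4 arrays on both scales was found for 9 genes: Ndufv2, Ndufs1, Ndufs3, Ndufs4, Ndufa9, Ndufb5, Ndufb7, Cyc1 and Uqcrc2. Cox6a2, Ndufb4 and Ndufaf1 were negative on all 4 arrays on both scales. The share of all genes that kept their sign on both scales at once was not counted. On each scale alone, 12.3% and 10.8% of all genes were higher on all 4 arrays, and 12.6% and 12.7% were lower.

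Complex I takes electrons from NADH. The 7 nuclear core subunits, which carry its flavin and iron-sulphur centres, had a median of -0.01, and of 0.02 at equal brightness. Ndufv2, an iron-sulphur subunit of the NADH-oxidising module, had ratios of 0.24, 0.23, 0.22 and 0.25 on arrays 1 to 4. These lie within a narrower range than those of the other core subunits. The mean was 0.24 ± 0.02, a 1.18-fold ratio, with an adjusted p of 0.194 in limma, and the mean at equal brightness was 0.30. Ndufs1, the largest subunit of the complex, had ratios of 0.09, 0.34, 0.12 and 0.06, with array 2 the highest. At the other end were Ndufv1, the flavin-binding partner of Ndufv2, at -0.08 ± 0.13, and Ndufs8 at -0.11 ± 0.16.

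Among the 28 accessory subunits the median was 0.03, with 18 above 0, and -0.02 at equal brightness, with 12 above 0. Ndufb5, in the membrane arm, had the highest mean, 0.42 ± 0.42. Its 4 values were 0.09, 0.02, 0.80 and 0.76, so that arrays 3 and 4 were far above arrays 1 and 2. Ndufa9, near the junction of the arms, had ratios of 0.24, 0.31, 0.26 and 0.26. All 4 were close together, with a mean of 0.27 ± 0.03 and an adjusted p of 0.166 in limma, and the mean was 0.26 at equal brightness. Ndufb4, also of the membrane arm, was the lowest, with -0.21, -0.36, -0.28 and -0.26. Its mean was -0.28 ± 0.06, with an adjusted p of 0.169 in limma, and -0.25 at equal brightness. With arrays centred on their median and no loess, however, the ratio of Ndufb4 was 0.34, where the median of all genes stood at 0.23. Ndufa2 was next lowest at -0.09 ± 0.12.

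The 250 bases before the transcription starts of Ndufb4, Ndufv2 and Ndufa9 are shown because these 3 genes kept opposite signs with small spread on both scales. They are from RefSeq, build GRCm38.p6, on the minus strand, at chr16:37654369-37654618, chr17:66101560-66101809 and chr6:126849145-126849394. Capitals mark GCGCANGCG, the core of the site of NRF1, a transcription factor of many respiratory chain genes, where N is any base.
Ndufb4: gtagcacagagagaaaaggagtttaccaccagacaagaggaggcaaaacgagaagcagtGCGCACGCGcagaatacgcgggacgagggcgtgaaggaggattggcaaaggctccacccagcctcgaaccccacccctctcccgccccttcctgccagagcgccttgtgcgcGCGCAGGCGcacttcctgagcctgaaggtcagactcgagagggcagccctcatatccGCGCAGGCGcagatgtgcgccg
Ndufv2: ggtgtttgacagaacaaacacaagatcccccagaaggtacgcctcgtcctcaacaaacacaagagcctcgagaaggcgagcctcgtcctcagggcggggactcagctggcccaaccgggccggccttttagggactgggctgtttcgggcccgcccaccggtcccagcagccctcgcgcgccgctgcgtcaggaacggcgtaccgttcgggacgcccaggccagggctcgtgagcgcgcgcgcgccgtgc
Ndufa9: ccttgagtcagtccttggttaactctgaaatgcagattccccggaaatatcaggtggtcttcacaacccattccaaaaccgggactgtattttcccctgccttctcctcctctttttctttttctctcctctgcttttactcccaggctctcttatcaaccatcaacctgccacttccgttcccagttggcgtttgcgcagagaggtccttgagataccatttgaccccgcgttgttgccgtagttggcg
Ndufb4 held the core 3 times, and the stretches of Ndufv2 and Ndufa9 held it nowhere. A search of both strands of the 300 bases around each start found it, in any window of a gene, in 20 of the 67 genes of the set with an entry, 29.9%, and in 7.03% of 27025 genes. The T-box site AGGTGTGA was in none of the 67 and in 1.48% of all genes. The 20 genes with the NRF1 core had a median ratio of 0.04, and the 47 without it 0.05. At equal brightness these medians were -0.03 and -0.02. A match describes the letters of the window only.

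Complex II, succinate dehydrogenase, has no mitochondrially encoded subunit and also works in the citric acid cycle. Its 4 genes had a median of -0.03, and of 0.01 at equal brightness. Sdha, the flavoprotein, had a mean of 0.04 ± 0.05, with a 95% interval from -0.10 to 0.19. Sdhb, the iron-sulphur subunit, was at -0.01 ± 0.09, and the membrane anchors Sdhc and Sdhd were at -0.05 ± 0.26 and -0.08 ± 0.11. After loess none of the 4 passed an unadjusted p of 0.05 in limma, and their intervals together spanned -0.33 to 0.23. At equal brightness Sdhd was at -0.20 ± 0.11, negative on all 4 arrays, with an unadjusted p of 0.0291 and an adjusted p of 0.311 in limma; the others were at 0.07, 0.04 and -0.03.

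Complex III passes electrons from ubiquinol to cytochrome c. Its 8 genes had a median of 0.11, with 6 above 0, and -0.01 at equal brightness. Uqcrh, the hinge protein, had 0.33, 0.47, 0.49 and 0.63. It was high on all 4 arrays, with a mean of 0.48 ± 0.12 and an adjusted p of 0.132 in limma, but the mean was 0.03 at equal brightness. Uqcrc2, a core protein, had 0.23, 0.15, 0.23 and 0.26. Its mean of 0.22 ± 0.05, with an adjusted p of 0.217 in limma, was 0.19 at equal brightness. Cyc1, which carries the haem of cytochrome c1, was at 0.15 ± 0.09 and at 0.18 on that scale. The lowest were the small subunits Uqcr, now called Uqcr11, at -0.13 ± 0.14, and Uqcrb at -0.13 ± 0.13. Uqcrfs1, the Rieske iron-sulphur protein, spread from -0.31 on array 2 to 0.52 on array 4.

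**Figure D3:**
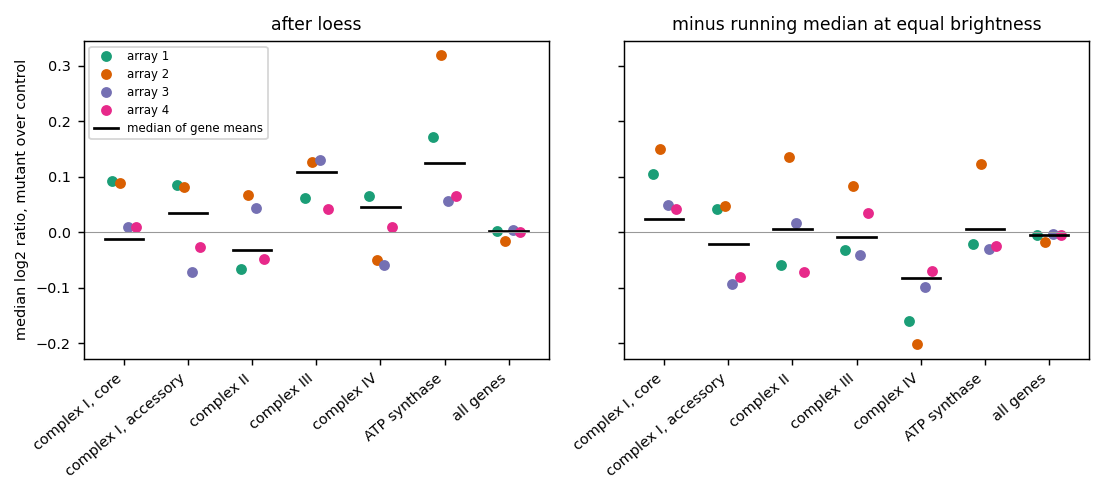
Median log2 ratio of mutant over control (vertical axis) over the genes of each complex and over all genes, after loess (left) and at equal brightness (right). Points are the 4 arrays and black lines the median of the gene means; that of ATP synthase is 0.12 on the left and 0.00495 on the right, and that of complex IV is 0.05 and -0.08.

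Complex IV, cytochrome c oxidase, reduces oxygen. The 14 genes tested had a median of 0.05, with 8 above 0; at equal brightness the median was -0.08, with 4 above 0, and it was negative on each array, at -0.16, -0.20, -0.10 and -0.07. Cox6a2, the heart and skeletal muscle form of subunit VIa, was the lowest, with -0.33, -0.22, -0.26 and -0.39. All 4 arrays were on the same side, with a mean of -0.30 ± 0.07, a 0.811-fold ratio, and an adjusted p of 0.157 in limma. Its mean at equal brightness was -0.34, but centring on the median without loess turned it to 0.36. In that setting 75 of the 81 genes passed an adjusted p of 0.05 in limma as higher, and Cox6a2 was still below the median of the set. Cox5a, a nuclear subunit with a bright probe, was at 0.04 ± 0.23 after loess and at -0.47 ± 0.30 at equal brightness, where it was negative on all 4 arrays. Cox7c, a small subunit, had the widest spread of the set, with 0.47, -0.75, -0.18 and 0.97. The arrays of Cox7c thus differed in sign, and its mean of 0.13 ± 0.75 was smaller than its SD. Cox4i1 and Cox5b, which assemble around the catalytic core, were at -0.06 ± 0.06 and -0.08 ± 0.19, and at -0.19 and -0.17 at equal brightness, with Cox8a at 0.10 ± 0.06 and Cox7b at 0.05 ± 0.21. The ratio of Cox8a turned to -0.10 at equal brightness, and also to -0.10 in the log ratio as deposited.

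Several subunits of complex IV, and subunit c of ATP synthase, have more than 1 gene. Cox6a2 lay below Cox6a1, its broadly expressed partner, on all 4 arrays, with a mean difference in log2 ratio of -0.58 ± 0.36. That difference was -0.02 ± 0.49 at equal brightness, with 2 arrays on each side. The probe of Cox6a1 was one of the brightest, and its ratios were 0.47, -0.17, 0.38 and 0.42. At equal brightness its mean of 0.28 ± 0.30 turned to -0.32 ± 0.42, with arrays 1 and 2 below 0 and arrays 3 and 4 near it. The muscle form Cox7a1 was at -0.08 ± 0.14 and Cox7a2 at -0.03 ± 0.18. For Cox8b, another muscle form, the ratio was -0.06 ± 0.31. Cox6b2, known from testis, was at 0.25 ± 0.43 and Cox6b1 at 0.11 ± 0.37. None of these pairs other than Cox6a2 and Cox6a1 differed in the same direction on all 4 arrays.

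After loess, ATP synthase had the highest median of the 5 complexes, 0.12, with 12 of 15 genes above 0. Of the 15, 7 were higher on all 4 arrays, against 12.3% of all genes. In limma 5 were higher at an unadjusted p of 0.05, against 7.09% of all genes. At equal brightness the median of ATP synthase was 0.00495, with 9 of 15 above 0. On that scale none was higher on all 4 arrays, against 10.8% of all genes. Atp5a1 had 0.72, 0.60, 0.70 and 0.56, and Atp5b had 0.63, 0.55, 0.67 and 0.59. Both were thus well above 0 on every array, at 0.65 ± 0.08 and 0.61 ± 0.05, or 1.57-fold and 1.53-fold. At equal brightness they were at 0.11 ± 0.10 and 0.02 ± 0.17. Atp5c1, the gamma subunit of the rotor, was at 0.37 ± 0.10 and -0.10 on the 2 scales, and Atp5o, part of the stalk, at 0.39 ± 0.15 and -0.12. Atp5e, the epsilon subunit, was the lowest, with 0.21, 0.05, -0.68 and -0.48. Its sign differed between arrays, with a mean of -0.22 ± 0.42; at equal brightness it was negative on all 4 arrays, at -0.41 ± 0.40.

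Atp5g1, Atp5g2 and Atp5g3 encode the same mature subunit c, whose ring turns in the membrane. Atp5g3 had 0.70, 0.25, 0.78 and 0.95, with array 2 the lowest and a mean of 0.67 ± 0.30. Atp5g1 was at 0.07 ± 0.05 and Atp5g2 at -0.08 ± 0.11. Atp5g1 lay below Atp5g3 on all 4 arrays, by -0.60 ± 0.31, and Atp5g2 by -0.75 ± 0.40, but at equal brightness each pair had 2 arrays on either side. Between Atp5g1 and the brighter Atp5g2 probe, of like brightness, the difference was 0.16 ± 0.13, with Atp5g1 above on all 4 arrays. At equal brightness it was 0.14 ± 0.13, with Atp5g1 above on 3 of 4. The dimmer Atp5g2 probe, with an A of 14.2, gave 0.08 ± 0.18, and 0.14 at equal brightness. For Atp5g1 these values were 0.07 and 0.09, so the difference rests on the brighter Atp5g2 probe.

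Array 2 decided some calls. Without it, 193 genes passed an adjusted p of 0.05 in limma, 1.01% of all, and 3 of them were of the set: Atp5a1 at 0.66, Atp5b at 0.63 and Atp5g3 at 0.81. With array 2 left out at equal brightness, none of the set passed an adjusted p of 0.05. Cox7a2l, Cox6a2, Ndufa4 and Ndufv2 passed one of 0.1 in limma there, at 0.0692, 0.0753, 0.0900 and 0.0913. How many of all genes did so is not given here. The normalisation mattered more: with each array centred on its median and no loess, 40.7% of all genes passed, and 75 of the 81 genes did, all of them higher in the mutant. The median of all genes then stood at 0.23 and that of the set at 0.63.

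Several genes carry more than 1 probe on this array. Of the 81 genes, 22 had more than 1 kept probe, and their probes differed by a median of 0.09, with 13 genes under 0.1. The largest differences were those of the 2 genes with the smallest adjusted p. The bright probe of Atp5a1, with an A of 17.1, gave 0.65, and the dimmer one, with an A of 15.7, gave 0.03 ± 0.13. The difference of 0.61 was 0.17 at equal brightness. Atp5b had 3 probes, with an A of 14.1, 15.99 and 17.2, which gave 0.01 ± 0.09, 0.25 ± 0.27 and 0.61 ± 0.05, in that order. At equal brightness they gave 0.06, 0.09 and 0.02, so the order of the means was lost. Equal brightness did not bring the probes of every gene together. The difference rose from 0.21 to 0.24 for Cox4nb and from 0.16 to 0.19 for Atp5g2. For Cox5a, with probes at an A of 6.5 and 16.97, it rose from 0.00405 to 0.48. At equal brightness the dimmer Cox5a probe was at 0.02 and the brighter at -0.47.

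The first 30 of the 60 bases of each Atp5b probe are shown, from the dimmest to the brightest, because they are 3 measurements of 1 gene that did not give the same ratio. They lie in Atp5b at chr10:127585810-127586488, chr10:127586901-127586960 and chr10:127591587-127591646 of build mm7, as the array design gives them; exons were not looked up for that build.
Dimmest: aatgccattggagaacttattgatgagaga
Middle: catggtggttactctgtatttgctggtgtt
Brightest: acaagagccttgattgaagatgtgatgttc
Over all 60 bases, G and C made up 40%, 45% and 31.7%. The brightest probe was thus the poorest in G and C. Uqcrh had 2 probes, at 0.48 and 0.28, which were 0.03 and 0.09 at equal brightness. In 5 genes (Atp5h, Cox7a2, Ndufa11, Ndufa12 and Ndufs6) 2 probes overlapped by 20 to 54 bases, and such pairs differed by 0.02 to 0.12.

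**Figure D4:**
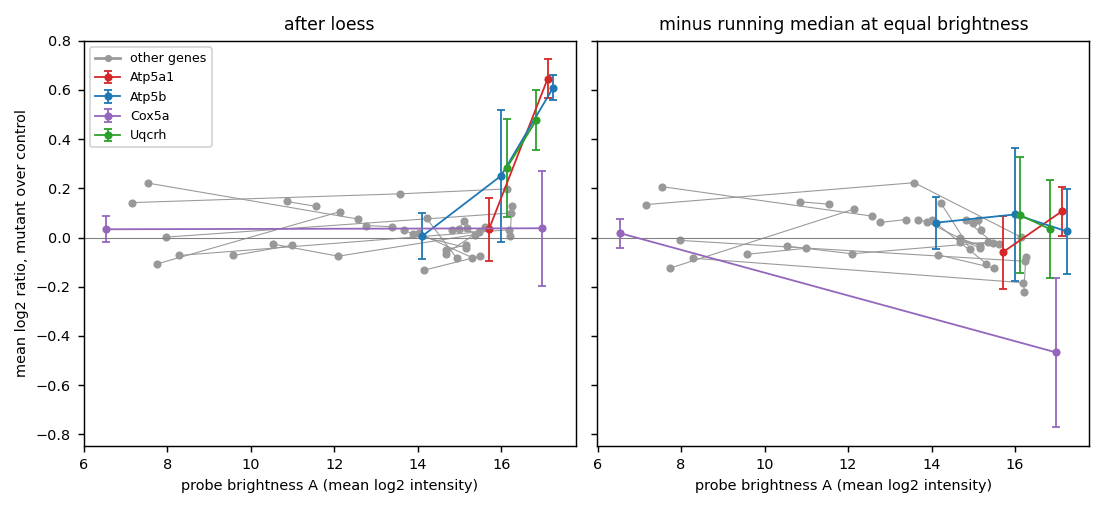
Mean log2 ratio of mutant over control (vertical axis) against probe brightness A in log2 intensity (horizontal axis), for the 22 genes with more than 1 kept probe; lines join the probes of a gene. Bars are SD over 4 arrays, for the coloured genes only. After loess (left) the probes of Atp5b lie at 0.01, 0.25 and 0.61, and at equal brightness (right) at 0.06, 0.09 and 0.02. Those of Cox5a lie at 0.03 and 0.04 on the left and at 0.02 and -0.47 on the right.

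Ndufa4 was at -0.10 ± 0.19, and at -0.22 ± 0.20 at equal brightness, with array 2 above 0 and the other arrays below on both scales. Of the 4 names that are no subunits, Cox7a2l was highest, with 0.31, -0.07, 0.57 and 0.64. Array 2 stood apart from the other arrays, the mean was 0.36 ± 0.32, and it was 0.41 at equal brightness, with an adjusted p of 0.309 in limma after loess. Ndufaf1, which helps build the membrane arm of complex I, was at -0.04 ± 0.04. Atp5s was at -0.03 ± 0.07 and Cox4nb at 0.10 ± 0.10, whose 2 probes had opposite signs, 0.10 and -0.11. A further list of 28 assembly and maturation genes had a median of -0.02. In limma none was higher and 2 were lower at an unadjusted p of 0.05, against 7.09% and 7.45% of all genes. The lowest of the 28 was Cox20, which helps insert a subunit of complex IV, at -0.31 ± 0.10. The highest was Oxa1l, the inner membrane insertase, at 0.12 ± 0.29.

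Neighbouring mitochondrial lists were also near 0, apart from the citric acid cycle. That list of 14 genes had a median of 0.15, and of 0.13 at equal brightness. At an unadjusted p of 0.05 in limma, 6 were higher and none lower after loess, against 7.09% and 7.45% of all genes. At equal brightness 5 were higher and none lower, against 6.37% and 7.45%. The highest of the list was Mdh2, malate dehydrogenase, at 0.52 ± 0.09 and -0.01 at equal brightness. Cs, citrate synthase, was at 0.42 ± 0.10 and 0.16, and the lowest was Dld at -0.16 ± 0.09. The 15 carriers and exchange proteins tested had a median of 0.03, with 4 higher and none lower after loess, and 2 and none at equal brightness. Among them were Slc25a4, the heart and muscle adenine nucleotide exchanger, at 1.07 ± 0.28 and 0.51 at equal brightness; Atpif1, the inhibitor of ATP synthase, at 0.28 ± 0.20; Cycs, cytochrome c, at 0.01 ± 0.19; and the testis form Cyct at -0.15 ± 0.58.

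The 17 genes of mitochondrial transcription and biogenesis had a median of -0.01, with 2 higher and 2 lower at an unadjusted p of 0.05 in limma. Among these regulators, Nrf1 was at 0.25 ± 0.31, Ppargc1a, a coactivator of respiratory chain genes, at 0.08 ± 0.18, and Tfam, which packages mitochondrial DNA, at -0.01 ± 0.15. Esrra, a nuclear receptor that works with Ppargc1a, was the lowest at -0.30 ± 0.11 and Tefm the highest at 0.30 ± 0.23. For 78 genes of the mitochondrial ribosome the median was 0.00794, with 9 higher and 7 lower, from Mrpl52 at -0.47 to Mrps22 at 0.46. The 25 genes of the import channel had a median of 0.00559, with 3 higher and 4 lower after loess and 4 and 1 at equal brightness, from Timm10b at -0.24 to Tomm20 at 0.37. None of the genes of these lists passed an adjusted p of 0.05 in limma. Of all genes, 7.09% were higher and 7.45% lower at an unadjusted p of 0.05 in limma after loess. At equal brightness the shares were 6.37% and 7.45%.

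Ratios of cell type markers also differed between arrays, and in pooled tissue fewer cells of a type and less RNA per cell cannot be told apart. All 7 cardiac muscle markers were tested, with a median over them of 0.21, 0.85, 0.74 and 0.29 on arrays 1 to 4, and 0.20 at equal brightness. The log2 of their summed intensity was 18.9 to 19.3 in the controls and 19.7 to 19.9 in the mutants. They did not share a sign: Actc1, Myh6, Myh7, Myl7 and Tnnt2, with an A of 16.5 to 17.5, lay from 0.46 to 1.09. Nkx2-5, with an A of 14.6, was at -0.08 ± 0.09, and Gata4, with an A of 8.6, at -0.13 ± 0.29. The 18 sarcomere genes had a median of 0.52, and of 0.18 at equal brightness. After loess they ran from Des at -0.22 to Myh7 at 1.09. At an unadjusted p of 0.05 in limma, 12 were higher and 1 lower after loess, against 7.09% and 7.45% of all genes. At equal brightness 5 were higher and 1 lower, against 6.37% and 7.45%. The 5 red cell markers had medians of 1.97, 0.99, -0.22 and 0.11, with sums of 18.0 to 19.4 in the controls and 19.4 to 20.1 in the mutants. The wider list of 13 erythroid genes had medians of 0.71, 0.40, -0.33 and -0.16, from Klf1 at -0.22 to Hbb-bh1 at 1.10. The 5 endocardial markers had a median of 0.07. The 6 cushion mesenchyme markers had medians of -0.32, -2.09, -0.33 and -0.30, with sums of 16.9 to 19.3 and of 16.5 to 16.7. The 4 leukocyte markers were at 0.14, -1.32, -0.13 and -0.18, with sums of 13.2 to 15.2 and 12.7 to 13.2. Of the liver markers only Afp was above background, with ratios of 2.58, 1.73, 1.35 and -0.63 and a mean of 1.26 ± 1.36, and Alb and Ttr were not. The 4 canal markers, Tbx2, Tbx3, Bmp2 and Msx2, were all above background, with medians of -0.55, 0.35, -0.58 and -0.44 and a median over the means of -0.31; Tbx3 itself is one of them, and Tbx2 was at 0.28 ± 0.24. The part of these cell types in the ratios of the respiratory chain genes was not tested.

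Across the 81 genes the ratios of arrays 3 and 4 ran together, with a Pearson r of 0.83, and of 0.77 at equal brightness. Over all genes the same r was 0.66. Arrays 2 and 4 had an r of -0.06 over the 81 genes. The points share probes and probe brightness, so these values describe the arrays only. Array 2 had the widest spread over all genes, an SD of 0.49, while over the 81 genes the SD was 0.22 to 0.28 on the 4 arrays. The list of 25 genes of the oxygen response and glycolysis had a median of 0.61, and of 0.53 at equal brightness. After loess it ran from Lonp1 at 0.10 to Egln3 at 1.36. At an unadjusted p of 0.05 in limma, 23 were higher and none lower after loess, against 7.09% and 7.45% of all genes. At equal brightness 21 were higher and none lower, against 6.37% and 7.45%. None passed an adjusted p of 0.05 after loess. The median over the 81 genes on the same 2 scales was 0.05 and -0.02.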

How the data were processed

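The files are output of Agilent Feature Extraction 9.5.1, named in the submitters' processing notes, for 4 two-colour arrays. Intensity, per the file headers, is each spot's mean signal per channel before its local background is subtracted. A deposited log10 ratio of Cy5 over Cy3, which the series' value table repeats within 5e-07 with column medians of 0, served as an alternative. Here, limma 3.58.1 (R 4.3.3) corrected the background (normexp, offset 50) and normalised within arrays (loess, control spots at weight 0). Spots marked non-uniform were dropped, and the spots of a probe averaged. Probes had to be well above background in 1 channel or both on 3 arrays or more (28806 of 41174 probes), and the brightest probe stood for a gene. Ratios were tested against 0 with lmFit and eBayes, with Benjamini-Hochberg adjustment over 19099 genes. At equal brightness, each array's running median over 501 probes along A was subtracted. Towards both ends of the range of A the window narrowed, so the brightest probes were set against fewer probes. The steps were tested on simulated data. The labels call the arrays biological replicates.

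The genes, lists and brightness bins were chosen with earlier results of these data known. Named genes are those with adjusted p under 0.1, the 2 highest and 2 lowest of each complex, complex II, isoform pairs, the names that are no subunits, those with the largest differences between probes, and from each other list the highest, the lowest and a few regulators. Atp5c1, Atp5o, Cox5a, Cox7c, Cyc1, Uqcrfs1 and the others named were chosen after their values were seen. Gene names were updated through RefSeq; 4 of the 83 changed.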

Additional observations from a re-analysis of the deposited data

Results flagged for a closer look

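Among 45 values examined there were 3 genes in which 1 of the 4 arrays stood apart from the other arrays: its gap to the nearest, over the whole range, was above the 95% critical value of Dixon's test. Chance gives this in about 1 in 20 groups. Cox6a1, a subunit of complex IV, was at -0.17 on array 2, where its mean was 0.28. Cox7a2, another subunit of complex IV, was at 0.24 on array 2, against a mean of -0.03. Ndufs8, a core subunit of complex I, was at 0.12 on array 1, against a mean of -0.11.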

How the results depend on the processing

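Loess, the trend with brightness and array 2 moved the results most. With arrays centred on their median and no loess, 75 of 81 genes passed an adjusted p of 0.05 and 79 one of 0.1 (of all 19099 genes, 7782 and 10201), the median over the set was 0.63, and Cox4i1 turned to 0.65, Cox6a2 to 0.36 and Ndufb4 to 0.34. At equal brightness the count at 0.1 was 0, the median -0.022 and Cox8a -0.10. With array 2 also left out these were 4 (Cox7a2l, Cox6a2, Ndufa4 and Ndufv2), -0.036 and -0.078. The count over all genes in that run is not given here. In the log ratio as deposited the count at 0.1, the median and Cox8a were 0, -0.040 and -0.10. The count at 0.1 was also 0 with the mean over probes of a gene, where Cox4nb turned to -0.00146, and with each probe on its own. Leaving out 1 array at a time gave 0 to 3 genes at 0.05 and 0 to 10 at 0.1; the 10 came without array 2, where 1543 of all 19099 genes passed. At equal brightness the median stayed within the spread between arrays in every alternative run, including a narrower window and, chosen after seeing the data, a running median without the set. For 38 named genes under the alternatives, 38 of 532 values turned sign, 20 of them without loess, and in 7 of the 38 the mean was larger than its SD. These 38 genes leave out those named after their values were seen. Of the latter, Cox5a, Atp5c1 and Atp5o turned sign at equal brightness, and Cyc1, Cox7c and Uqcrfs1 did not. Of 84 medians of a complex, 15 moved by more than the spread between arrays. The test of the ratios against 0 is already paired, since each array's ratio sets 1 mutant pool against 1 control pool. With 1 group of arrays there was no further pairing to use. Signal over background does not limit the 81 genes; 4 arrays, 1 dye orientation and the trend at the bright end do.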
